A study of Mus musculus with 5 samples.

Results

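The non-tumor section of a 12M HKO liver was compared with a 12M Srsf2f/f liver, to ask which genes differed in mutant tissue outside the tumor. HKO mice carry loxP-flanked Srsf2 alleles together with Alb-Cre, a Cre recombinase under the albumin promoter that recombines in hepatocytes, and the Srsf2f/f control carries the alleles without Cre. The 12M Srsf2f/f liver is labelled wild type. Both mice were of the C57BL/6 strain, aged 12 months by their labels, and no drug or diet is stated for them. The sample codes of the 12M libraries name another month than their age labels. By the animal number in its label, the non-tumor section came from the liver that also gave the tumor sample, and HKO mice that reach this age are those that survived into adulthood. Libraries of a 2M HKO liver, a 2M Srsf2f/f liver and the 12M tumor are given beside the comparison where they help to place a gene. Each group is 1 library of 1 animal, so there is no replicate error, no p-value is given, and a difference between 2 libraries may be one between 2 animals. The members are all gene records with over 1 FPKM in the non-tumor section or in the 12M Srsf2f/f liver, 11037 of 46095. FPKM counts sequenced fragments relative to gene length and library depth, so it is a level per length.

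The SR protein Srsf2 binds exonic enhancers and helps the spliceosome to choose splice sites. In a healthy liver, hepatocytes fill the lobule and divide rarely, and their genes differ between the portal and the central end and between the sexes. When hepatocytes are lost over a long time, small biliary cells spread from the portal tracts, stellate cells and portal fibroblasts turn into myofibroblasts that lay down collagen, and monocytes enter from the blood. Hepatocytes under such stress often express keratins, annexins and other genes that are low in the resting cell.

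The 5 libraries held between 34969834 and 36104176 fragments, worked back from FPKM and gene length, with 35310555 for the non-tumor section and 35142289 for the 12M Srsf2f/f liver. Srsf2, on chromosome 11 of GRCm38 from 116849897 to 116853114, had 17.6 FPKM in the non-tumor section and 15.6 FPKM in the 12M tumor, against 15.7 FPKM in the 12M Srsf2f/f liver, and 22.7 FPKM in the 2M HKO liver against 14.6 FPKM in the 2M Srsf2f/f liver. The log2 ratio of the non-tumor section to the 12M Srsf2f/f liver was 0.16, or -0.03 after scaling by the median ratio over genes, so the record gives no check of the labels, and libraries are called by their labels throughout. The label of the 12M tumor states no genotype. The record sums over the whole gene and over all liver cells, so it does not show how much of the deleted part was transcribed. The study reports that the protein was missing from livers of young HKO mice but was detected again in older ones. It also reports that altered splicing events had returned to wild-type patterns in the older livers. By their labels, the HKO libraries used here come from such older mice. HKO therefore names a genotype here and does not mean that the protein was absent, which was not tested. Hepatocyte markers were abundant on both sides, with Alb at 35874 FPKM in the non-tumor section and 34306 FPKM in the 12M Srsf2f/f liver, and with Hnf4a, a transcription factor of hepatocytes, at 182 FPKM against 191 FPKM. In bulk tissue, fewer cells of a type and less RNA per cell cannot be told apart. Of the gene records 1724, 208 of them members, lie on alternate or unplaced scaffolds, and fragments of some common genes may be shared between such copies.

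Of the 11037 members, 1172 were over 2-fold higher (10.6% of members) and 264 over 2-fold lower (2.39%) in the non-tumor section, on log2 ratios of FPKM + 0.1. Members over 1 FPKM in both libraries numbered 9757, of which 526 were higher and 143 lower. Another 1037 passed 1 FPKM only in the non-tumor section and 243 only in the 12M Srsf2f/f liver, and such genes had to differ. Most genes differed little, with 87.0% of members within 2-fold. The median log2 ratio over all members was 0.20, with quartiles at -0.05 and 0.50. A gene was called where it also had over 5 FPKM in either library, the fold and minimum of the study's methods without their p-value. By this rule 398 of 6481 genes were higher (6.14%) and 112 lower (1.73%), and for 323 and 92 of them the 95% exact binomial interval of the fragment ratio, which covers counting error only, lay wholly past 2-fold. Scaling by the median ratio over 9099 genes with over 1 FPKM in every library moved all log2 ratios down by 0.19. It gave 304 higher and 175 lower genes, so the higher ones made up 63.5% of calls in place of 78.0%. A list with a median near 0.19 or 0.20 thus lies with the bulk of genes. Counts of higher and lower genes in a list are likewise to be read beside the 10.6% and 2.39% of all members.

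**Figure D1:**
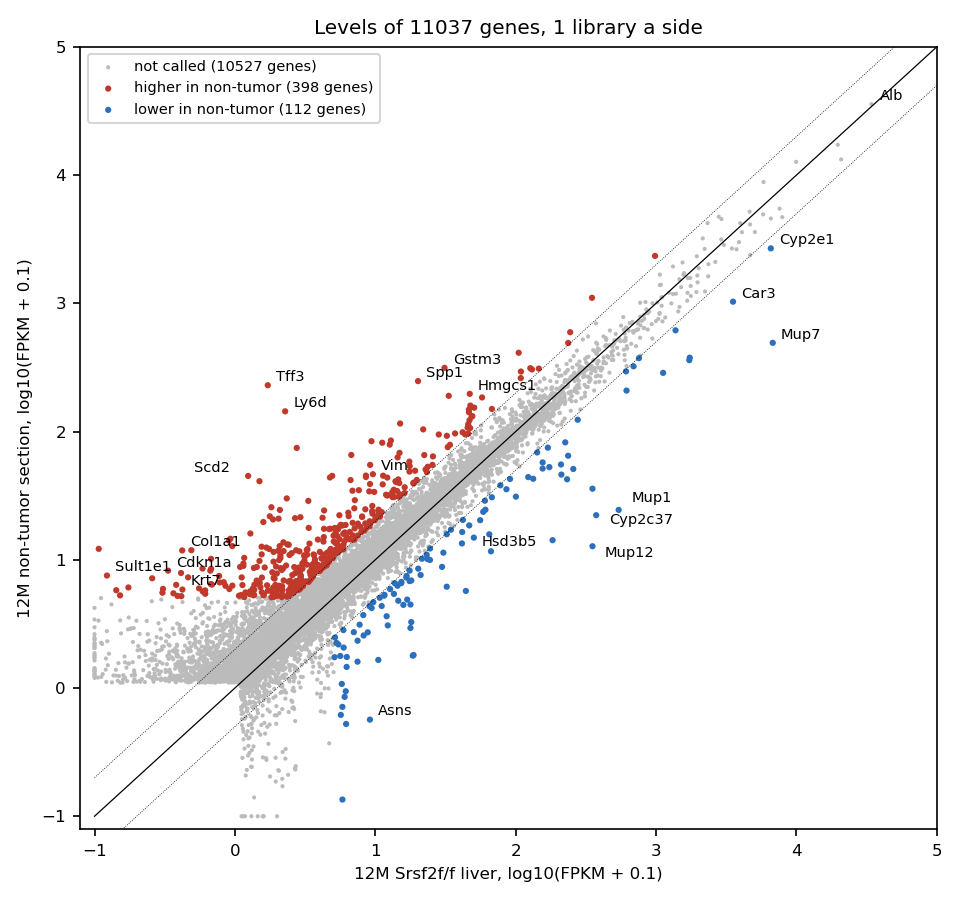
Each point is 1 of 11037 genes, with its level in the 12M non-tumor section on the vertical axis and in the 12M Srsf2f/f liver on the horizontal axis, both as log10(FPKM + 0.1). Red points are the 398 genes called higher and blue points the 112 called lower, the solid line marks equal levels and the dotted lines 2-fold, and most points lie between the dotted lines.

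The largest ratios belonged to genes that the control liver hardly expressed. Tff3, a trefoil peptide secreted by mucous epithelia, had 230 FPKM in the non-tumor section and 1.62 FPKM in the 12M Srsf2f/f liver, a ratio of 142 (95% interval 97.0 to 218). Ly6d, a GPI-anchored surface protein, had 144 FPKM against 2.18 FPKM, a ratio of 65.9 (50.3 to 88.2). Scd2, a stearoyl-CoA desaturase that the adult liver normally expresses little beside Scd1, had 45.0 FPKM against 1.14 FPKM, a ratio of 39.4. Among the 15 highest log2 ratios, without predicted genes, Tff3 was at 7.07, followed by Shc2 at 6.83, Ly6d at 5.98, Sult1e1 at 5.94, Gldn at 5.34 and Scd2 at 5.18. Shc2, an adaptor of receptor tyrosine kinases, and Sult1e1, the estrogen sulfotransferase, each rested on 1 fragment in the 12M Srsf2f/f liver, and their ratios of 1682 (301 to 66472) and 329 (58.7 to 13050) have very wide counting intervals. The order of these genes depends on the pseudocount of 0.1 FPKM. The rest were Ntrk2, the receptor of brain-derived neurotrophic factor, at 5.13, Col1a1 at 4.81, Gipc2 at 4.80, Asgr2 at 4.78, Cib3 at 4.76, Cdkn1a at 4.62, Igkv8-30 at 4.60, Casp12 at 4.27 and Emp1 at 4.26. Asgr2 encodes a chain of the asialoglycoprotein receptor of hepatocytes, and its record lies on a scaffold. Igkv8-30 is a light chain segment of antibodies, at 11.8 FPKM against 0.390 FPKM.

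The 15 lowest ratios included 5 Mup genes and 2 Cyp2c genes. Mup12 and Mup1, secreted lipocalins that carry pheromones in urine, had 12.7 FPKM and 24.4 FPKM in the non-tumor section, against 353 FPKM and 543 FPKM in the 12M Srsf2f/f liver, which put them at -4.79 and -4.47 on the log2 scale. Cyp2c37, a cytochrome P450 of the central lobule, had 22.2 FPKM against 375 FPKM and was 16.9-fold lower (16.02 to 17.83). Asns, which makes asparagine, had 0.467 FPKM against 9.07 FPKM and was 19.4-fold lower (13.8 to 28.1). The other log2 ratios among the 15 lowest were Mup7 at -3.79, Hsd3b5 at -3.69, Dpy19l3 at -3.56, Acot3 at -3.37, Susd4 at -3.37, Mup3 at -3.30, Sult5a1 at -3.20, Cyp2c40 at -3.03, Cidea at -2.95, Slco1a1 at -2.52 and Mup16 at -2.46. Mup and Cyp2c genes have near-identical copies, and the fragments of one copy may be counted for another, so these families are read as groups.

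Biliary and other epithelial genes made up the first group of higher genes. Of 26 biliary markers, 16 were measured, which here means over 1 FPKM in either library, and 11 were higher and 1 lower, with a median log2 ratio of 1.82 beside 0.20 over all members. Of these 16, 8 passed 1 FPKM only in the non-tumor section, and over the 15 markers with a mean above 1 FPKM across the 5 libraries the median was 1.74. It was 1.002 with a pseudocount of 1, and 0.69 over the 9 markers with over 5 FPKM, of which 4 were higher, so the size of the median rests on markers of low level. Krt7, a keratin of bile duct cells, had 5.77 FPKM in the non-tumor section and 0.323 FPKM in the 12M Srsf2f/f liver, a ratio of 17.9 (11.1 to 30.5). Krt19, the other classical duct keratin, had 4.61 FPKM against 0.659 FPKM, and Epcam, a surface glycoprotein of duct cells, had 1.70 FPKM against 0.511 FPKM. Spp1, the secreted phosphoprotein osteopontin, was far more abundant, with 248 FPKM against 20.1 FPKM and a ratio of 12.3 (11.6 to 13.1). Sox9, a transcription factor of duct and progenitor cells, had 2.18 FPKM against 0.583 FPKM. The exception was Onecut1, a factor shared by duct cells and hepatocytes, at 1.51 FPKM against 7.38 FPKM. Summed over the list, the level was 425 FPKM in the non-tumor section and 181 FPKM in the 12M Srsf2f/f liver. Of these sums Spp1 alone gave 248 FPKM and 20.1 FPKM, so they do not stand for the other markers.

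Genes of secreted and surface epithelial proteins had a median log2 ratio of 2.06 over 14 measured members, 9 higher and 1 lower, and 4 of them passed 1 FPKM only in the non-tumor section. This list was chosen with earlier results of these data known, so its count and median are not independent evidence. Besides Tff3 and Ly6d, the transcription factor gene Elf3 had 4.18 FPKM against 0.258 FPKM, the siderophore-binding lipocalin gene Lcn2 116 FPKM against 14.9 FPKM, and the protease inhibitor gene Slpi 9.70 FPKM against 1.40 FPKM. The cell types of origin were not tested. Oncofetal genes, active in the fetal liver and in liver tumors, stayed low in absolute level. Of 19 such genes 8 were measured and 7 were higher, 5 of them members only through the non-tumor section. H19, an imprinted noncoding RNA, had 12.1 FPKM against 1.65 FPKM, and Afp had 1.45 FPKM against 0.286 FPKM. Igf2 did not reach 1 FPKM in either library, at 0.593 FPKM in the non-tumor section and 0.0982 FPKM in the 12M Srsf2f/f liver, while the 12M tumor from the same animal held 534 FPKM. Of 12 measured genes of HCC progression 8 were higher, and since the study named some of them and of the oncofetal genes from these same libraries, their counts are not independent evidence. The 8 include the intermediate filament gene Vim at 46.4 FPKM against 9.53 FPKM, Golm1 at 3.81 FPKM against 1.08 FPKM and the urokinase gene Plau at 1.81 FPKM against 0.619 FPKM.

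Shape and adhesion genes followed. Cytoskeletal genes were higher in 17 of 27 measured cases with 1 lower, at a median log2 ratio of 1.26. The hepatocyte keratins Krt8 and Krt18, which pair to form filaments, had 312 FPKM and 294 FPKM in the non-tumor section, against 127 FPKM and 109 FPKM in the 12M Srsf2f/f liver. Of 27 annexin, S100 and galectin genes 15 were higher and 0 lower, the median being 1.08. Anxa2, a membrane-binding annexin, had 45.2 FPKM against 11.3 FPKM, and S100a11, a calcium-binding partner of annexins, 79.1 FPKM against 12.6 FPKM. Cdh1, which encodes E-cadherin, had 21.4 FPKM against 2.83 FPKM, and it was 1 of 2 higher genes among 22 measured junction genes, whose median was 0.59. That count lay near the 10.6% share of all members.

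Matrix genes formed the second group. Of 16 measured collagen genes 12 were higher and 0 lower, at a median log2 ratio of 2.31, where 8 of the 16 passed 1 FPKM only in the non-tumor section. Col1a1, on chromosome 11 from 94936224 to 94953042, encodes the first chain of fibrillar type I collagen and had 11.7 FPKM in the non-tumor section against 0.322 FPKM in the 12M Srsf2f/f liver, a ratio of 36.5 (28.6 to 47.3). Its partner chain Col1a2 had 14.5 FPKM against 0.828 FPKM, and Col3a1, the fibrillar collagen of early scars, 20.6 FPKM against 1.77 FPKM. Myofibroblast genes were higher in 14 of 18 measured cases, at a median of 2.13, and 8 of the 18 passed 1 FPKM only in the non-tumor section. The group included Lum, a collagen-binding proteoglycan, at 21.8 FPKM against 1.67 FPKM, and the contractile genes Acta2 and Tagln at 3.15 FPKM and 10.9 FPKM against 1.42 FPKM and 4.18 FPKM. The summed level of the myofibroblast list was 256.5 FPKM in the non-tumor section and 99.4 FPKM in the 12M Srsf2f/f liver. Among 9 measured genes of portal fibroblasts and mesothelium, the sheet of cells that covers the liver, 7 were higher, with a median of 2.75, but 6 of the 9 passed 1 FPKM only in the non-tumor section. Msln and Upk3b, defining markers of mesothelium, had 2.80 FPKM and 4.10 FPKM against 0.0803 FPKM and 0.531 FPKM, and their part in the ratios of shared genes was not tested.

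Quiescent stellate cell genes gave a mixed picture. Of 20 markers, all measured, 7 were higher and 1 lower, the median being 0.53. The PDGF receptor gene Pdgfrb had 9.86 FPKM against 1.97 FPKM. Lrat and Reln, which mark the vitamin A storing cell, differed little, at 3.22 FPKM and 6.33 FPKM in the non-tumor section against 2.44 FPKM and 4.69 FPKM in the 12M Srsf2f/f liver. Matrix remodelling genes were higher in 17 of 20 measured cases, 12 of the 20 being members only through the non-tumor section, at a median of 1.81. Timp1, the inhibitor of metalloproteinases induced in fibrosis, had 4.39 FPKM against 0.0320 FPKM, where the lower value is 1 fragment. The gelatinase gene Mmp2 had 8.13 FPKM against 0.568 FPKM, and the membrane-bound activator gene Mmp14 24.7 FPKM against 8.40 FPKM. Basement membrane genes were higher in 7 of 14 cases, with Nid1 at 11.6 FPKM against 2.78 FPKM and Lamb1 at 3.69 FPKM against 1.17 FPKM.

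Marker lists of sinusoidal endothelium and of Kupffer cells had medians below 0. Of 17 measured markers of sinusoidal endothelium, 15 had a log2 ratio below 0, 3 were over 2-fold lower and 1 over 2-fold higher, at a median of -0.78. After rescaling 7 of the 17 were over 2-fold lower. Dnase1l3, a secreted nuclease, had 7.39 FPKM in the non-tumor section and 16.6 FPKM in the 12M Srsf2f/f liver, and the scavenger lectin gene Clec4g 18.3 FPKM against 36.4 FPKM. The exception was Lyve1, the hyaluronan receptor of sinusoidal and lymphatic endothelium, at 4.93 FPKM against 0.982 FPKM. The summed level of the list was 232.5 FPKM against 335.6 FPKM. Markers of other vessels differed from this, with 6 of 18 measured genes higher and 0 lower, 4 of the 18 being members only through the non-tumor section. Cd34, a sialomucin of capillaries and fibroblasts, had 5.89 FPKM against 0.456 FPKM, but the junction genes of all endothelium Pecam1 and Cdh5 were level, at 7.41 FPKM and 9.46 FPKM against 7.43 FPKM and 9.42 FPKM.

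Kupffer cell genes were mostly level or somewhat lower, while those of recruited macrophages were higher. The median over 14 measured Kupffer markers was -0.17, with 2 higher and 2 lower. Clec4f, a lectin particular to Kupffer cells, had 32.5 FPKM in the non-tumor section and 41.3 FPKM in the 12M Srsf2f/f liver. Timd4, a receptor for dying cells on long-lived Kupffer cells, had 1.17 FPKM against 2.54 FPKM, and Cd163, the haptoglobin-hemoglobin receptor, 0.895 FPKM against 4.26 FPKM. Marco, a bacterial scavenger receptor, went the other way with 25.6 FPKM against 1.72 FPKM, a ratio of 14.9 (12.4 to 18.1). Of 20 measured genes of monocytes and injury macrophages, 19 were higher and 8 passed 1 FPKM only in the non-tumor section, at a median of 1.73, or 1.72 over the 22 genes with a mean above 1 FPKM across libraries. Cx3cr1, the fractalkine receptor, had 5.44 FPKM against 0.205 FPKM, Gpnmb, a glycoprotein of lipid-laden macrophages, 2.14 FPKM against 0.172 FPKM, and the tetraspanin gene Cd63, active in many cells, 45.1 FPKM against 4.84 FPKM.

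Genes of all leukocytes and phagocytes were higher in 12 of 22 measured cases and lower in 0, at a median of 1.03. After rescaling the higher ones numbered 5 of 22. Their summed level was 794 FPKM in the non-tumor section and 364 FPKM in the 12M Srsf2f/f liver. Ptprc, the common leukocyte antigen CD45, had 2.20 FPKM against 1.01 FPKM, and Lyz2, the lysozyme of phagocytes, 185 FPKM against 57.6 FPKM. Lymphocyte markers remained scarce, with 3 of 30 genes of T and NK cells and 5 of 23 genes of B and plasma cells measured. Jchain, which joins secreted antibodies, had 11.4 FPKM against 1.79 FPKM. Cd74, the invariant chain of MHC class II, had 190 FPKM against 33.3 FPKM. The class II chain genes H2-Aa and H2-Ab1 lay under 1 FPKM, at 0.503 FPKM and 0.571 FPKM in the non-tumor section, while for the 12M Srsf2f/f liver H2-Aa was listed at 0 and H2-Ab1 at 0.0717 FPKM. Of 20 neutrophil genes 8 were measured, 5 of them only through the non-tumor section, and 6 were higher, with S100a8 at 5.13 FPKM against 0.290 FPKM, while the defining gene Ly6g was listed at 0 in both libraries. Chemokine genes were higher in 8 of 18 cases, 6 of the 18 being members only through the non-tumor section, among them the monocyte attractant gene Ccl2 at 4.95 FPKM against 1.02 FPKM. Interferon-stimulated genes were higher in 9 of 30 cases and lower in 0, with a median of 0.74, and 5 of the 30 passed 1 FPKM only in the non-tumor section. How far such changes in cell makeup take part in the other ratios was not tested.

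**Figure D2:**
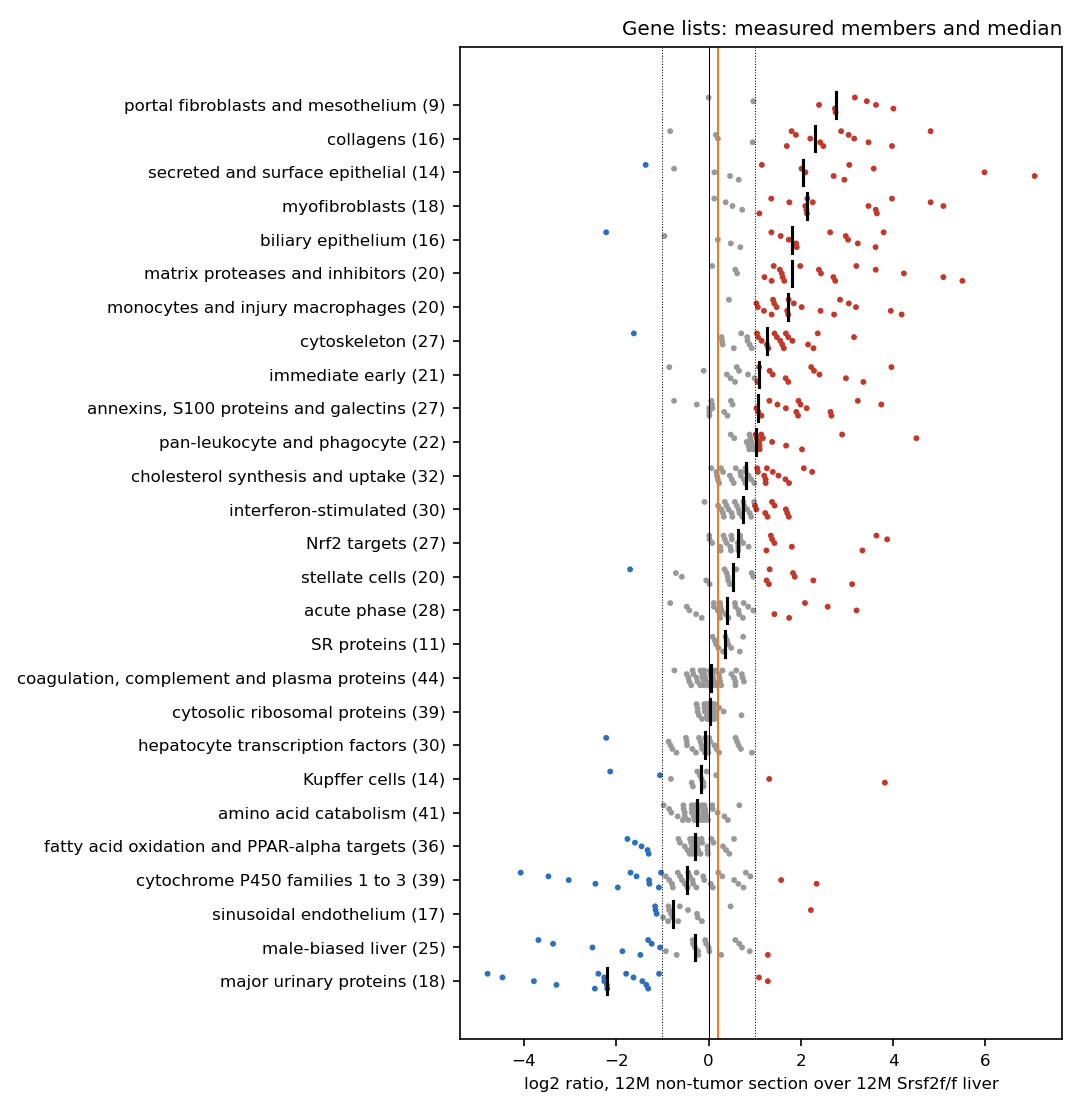
Each row is a gene list with the number of measured members in brackets, and each point is 1 gene at its log2 ratio of the 12M non-tumor section over the 12M Srsf2f/f liver, red above 1, blue below -1. The black bar is the median of the list and the orange line the median of all members at 0.20, and the bars run from 2.75 for portal fibroblasts and mesothelium to -2.20 for major urinary proteins.

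Among cell cycle genes, the inhibitor Cdkn1a stood out. It encodes p21, a target of p53 that blocks entry into S phase, and had 8.13 FPKM in the non-tumor section and 66.5 FPKM in the 12M tumor against 0.234 FPKM in the 12M Srsf2f/f liver, and 15.9 FPKM in the 2M HKO liver against 0.898 FPKM in the 2M Srsf2f/f liver. The 12M ratio of non-tumor section to control was 34.7 (21.2 to 61.1). The gene has 2 start sites in RefSeq, and the 250 bases before the first, at chr17:29090729-29090978 on the plus strand of GRCm38.p6, are shown because they hold a repeat of the p53 core.
Cdkn1a: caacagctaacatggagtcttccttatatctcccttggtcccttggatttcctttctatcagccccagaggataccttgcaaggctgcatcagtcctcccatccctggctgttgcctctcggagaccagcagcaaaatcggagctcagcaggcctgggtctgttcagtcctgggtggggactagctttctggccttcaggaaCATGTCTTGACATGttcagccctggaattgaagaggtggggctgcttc
Capitals mark a match to CATG, any 6 bases and CATG again, a core of the p53 response element, which lies 48 to 35 bases before the start. The pattern reads the same on both strands. Among all 32851 such windows of RefSeq genes 0.490% hold this motif, beside 0.308% for members and 4 of 361 windows (1.11%) of called higher genes. The window of Cdkn1a, shown because it holds the motif, is 1 of the 4. Called lower genes had it in 0 of 108 windows and measured p53 targets in 1 of 27. Other p53 targets were less apart, and 4 of 22 measured were higher, with a median log2 ratio of 0.50. Btg2, an antiproliferative gene, had 17.7 FPKM against 3.26 FPKM, but Mdm2, which encodes the ubiquitin ligase of p53, only 3.53 FPKM against 2.78 FPKM. Of 25 measured apoptosis regulators and death receptors 4 were higher and 0 lower, beside 10.6% and 2.39% of all members. Their median was 0.58, and 5 of the 25 passed 1 FPKM only in the non-tumor section. Casp12, a caspase linked to the endoplasmic reticulum, had 5.84 FPKM against 0.208 FPKM, and Casp1, the inflammasome caspase, 6.59 FPKM against 0.733 FPKM.

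Genes of dividing cells were low in both libraries. Of 30 mitosis genes 8 were measured, 6 of them only through the non-tumor section, and 7 were higher, the highest level being 3.10 FPKM for Cenpa, a histone of the centromere, against 1.23 FPKM. Mki67, which encodes the Ki67 antigen, had 0.315 FPKM in the non-tumor section and 0.0367 FPKM in the 12M Srsf2f/f liver, beside 4.22 FPKM in the 2M HKO liver. Of 25 DNA replication genes 5 were higher, 8 of the 25 being members only through the non-tumor section, the median being 0.55. G1 regulators were higher in 7 of 18 cases, where 6 of the 18 passed 1 FPKM only in the non-tumor section. Ccnd1, the D-type cyclin that answers growth factors, had 24.2 FPKM against 4.22 FPKM, and Myc, a transcription factor of growth, 14.04 FPKM against 0.807 FPKM. Among immediate early genes, which respond within minutes to growth factors or stress, 12 of 21 were higher and 0 lower, at a median of 1.10. Of the 21, 4 passed 1 FPKM only in the non-tumor section and 1 only in the 12M Srsf2f/f liver. After rescaling 10 were higher and 1 lower. Their median was 0.91 with the 2M Srsf2f/f liver as control and 0.66 against both controls. Egr1 had 21.04 FPKM against 2.58 FPKM and Gadd45g 20.9 FPKM against 1.95 FPKM. Socs3, the feedback inhibitor of Stat3, had 24.4 FPKM against 1.99 FPKM.

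Growth factor and developmental pathways showed a few higher members each. In the TGF-beta family 13 of 29 genes were higher, 11 of the 29 being members only through the non-tumor section, with a median of 0.84 and with the ligand gene Tgfb3 at 2.82 FPKM against 0.261 FPKM. Of 22 measured Hippo effectors and Yap targets 5 were higher, or 3 after rescaling, among them the secreted matrix protein genes Ctgf and Cyr61 at 8.56 FPKM and 8.10 FPKM against 3.77 FPKM and 3.93 FPKM, while Yap1 itself was level at 15.5 FPKM against 14.3 FPKM. Of 11 Notch genes 4 were higher and 4 passed 1 FPKM only in the non-tumor section, the higher ones including the target gene Hes1 at 11.8 FPKM against 4.69 FPKM. Tnfrsf12a, the receptor of the cytokine Tweak, had 21.8 FPKM against 6.37 FPKM, and Egfr, the EGF receptor that is abundant in hepatocytes, was lower at 35.4 FPKM against 86.0 FPKM.

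Major urinary protein genes had the lowest median of the gene lists. They are expressed by hepatocytes under pulsed growth hormone in male mice. Of 18 measured genes 16 were lower and 2 higher, with a median log2 ratio of -2.20, and their summed level was 2051 FPKM in the non-tumor section and 12190.0 FPKM in the 12M Srsf2f/f liver. Mup7 had 493 FPKM against 6796 FPKM and was 13.8-fold lower (13.58 to 14.003), on a scaffold record. Mup17 had 377 FPKM against 1741 FPKM. The higher members were Mup20, known as darcin, at 596 FPKM against 245 FPKM, and Mup15 at 39.9 FPKM against 18.6 FPKM. Both are scaffold records. After rescaling 1 of the 18 was over 2-fold higher and 16 were lower. Fragments may be shared between copies, so whether these 2 genes differ from the rest of the family was not tested.

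Male-biased liver genes, some of them urinary proteins, were mixed. Of 25 measured, 8 were lower and 1, Mup20, higher, with a median of -0.29. Hsd3b5, a ketosteroid reductase of the male liver, had 14.1 FPKM in the non-tumor section against 183 FPKM in the 12M Srsf2f/f liver and was 12.97-fold lower (12.07 to 13.96). Slco1a1, an uptake transporter of organic anions, had 11.6 FPKM against 66.7 FPKM. By contrast Cyp4a12a, a fatty acid hydroxylase that is also male-biased, was level at 171 FPKM against 170 FPKM, and Elovl3, a fatty acid elongase, was at a log2 ratio of 0.67. Female-biased genes went both ways, with 4 of 15 higher and 6 lower. Of the 15, 3 passed 1 FPKM only in the non-tumor section and 2 only in the 12M Srsf2f/f liver. Sult1e1 was far higher, but Cyp2c40 and Cyp2c69 were lower, at 0.613 FPKM and 0.0960 FPKM against 5.74 FPKM and 2.07 FPKM. Of 20 measured genes of the growth hormone and IGF axis 5 were higher and 1 lower. Their median was 0.15, which becomes -0.04 after rescaling. In the growth hormone pathway the receptor gene Ghr had 64.5 FPKM against 95.6 FPKM, and the feedback gene Cish 7.52 FPKM against 2.47 FPKM, but Cish had 36.1 FPKM in the 2M Srsf2f/f liver. All 5 libraries had Xist listed at 0, and the Y-linked gene Ddx3y had 4.29 FPKM in the non-tumor section and 5.09 FPKM in the 12M Srsf2f/f liver.

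Cytochrome P450 genes of families 1 to 3, which oxidise drugs and steroids, had a median of -0.46, with 11 of 39 measured lower and 2 higher. The lower ones lay largely in the Cyp2c cluster on chromosome 19. Cyp2c29 had 287 FPKM against 1125 FPKM, Cyp2c54 42.4 FPKM against 233 FPKM and Cyp2c50 209 FPKM against 617 FPKM. Cyp2e1, the ethanol-inducible enzyme of the central lobule and the most abundant P450, had 2689 FPKM against 6579 FPKM. Cyp3a11, the main drug-metabolizing enzyme of the mouse liver, was not lower, at 1940.4 FPKM against 1322 FPKM.

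Zonation genes did not move together. Over 29 measured pericentral genes the median was -0.08, with 3 higher and 4 lower. Glul, the glutamine synthetase of the innermost central hepatocytes, was level at 418 FPKM in the non-tumor section against 373 FPKM in the 12M Srsf2f/f liver, while Gstm3, a glutathione transferase, had 314 FPKM against 31.1 FPKM. Over 27 periportal genes the median was 0.05, which becomes -0.14 after rescaling, with 3 higher and 1 lower. The higher counts of both lists lay near the 10.6% of all members, whose lower share was 2.39%. With the 2M Srsf2f/f liver as control the pericentral and periportal medians were 0.46 and -0.43. The lower gene was G6pc, the glucose-6-phosphatase that releases glucose, at 55.3 FPKM against 211 FPKM. Urea cycle genes, of which Cps1 sets the pace at 173 FPKM against 216 FPKM, and amino acid catabolism genes had 0 of 17 and 0 of 41 members past 2-fold in either direction, at medians of -0.16 and -0.25. Hepatocyte transcription factors had 1 of 30 past 2-fold, which was Onecut1.

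Genes of fat metabolism differed singly. Fatty acid oxidation and PPAR-alpha target genes had a median of -0.31, with 5 of 36 lower and 0 higher. With the 2M Srsf2f/f liver as control the median was 0.11. The lower ones were the Cyp4a hydroxylase and thioesterase genes Cyp4a14, Cyp4a10, Cyp4a32, Acot1 and Acot2, with Cyp4a14 at 51.4 FPKM against 156 FPKM. Of these, Cyp4a14, Acot1 and Acot2 had lower levels in the 2M Srsf2f/f liver than in the non-tumor section, at 19.4 FPKM, 11.8 FPKM and 0.702 FPKM, so their direction turns with that control. Core enzymes of mitochondrial oxidation stayed near level, with Cpt1a at 79.8 FPKM against 88.0 FPKM. Among lipid droplet genes, Cidea, which fuses droplets and is low in a lean liver, had 5.62 FPKM in the non-tumor section, 5.35 FPKM in the 12M tumor and 44.1 FPKM in the 12M Srsf2f/f liver, but 0.357 FPKM in the 2M HKO liver and was listed at 0 in the 2M Srsf2f/f liver. Cidec, a related droplet gene, had 41.2 FPKM in the non-tumor section and 46.0 FPKM in the 12M Srsf2f/f liver, against 0.882 FPKM in the 2M Srsf2f/f liver. G0s2, an inhibitor of triglyceride lipase, had 51.0 FPKM in the non-tumor section, against 258 FPKM in the 12M Srsf2f/f liver and 41.4 FPKM in the 2M Srsf2f/f liver. The control livers thus differed from each other in these genes, and the direction of Cidea and G0s2 depends on which of them is taken. Lpl, the lipoprotein lipase, had 30.0 FPKM against 2.24 FPKM. In fatty acid synthesis 2 of 23 genes were higher, Scd2 and Slc25a1, a share near the 10.6% of all members. Fasn had 136 FPKM against 70.5 FPKM.

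**Figure D3:**
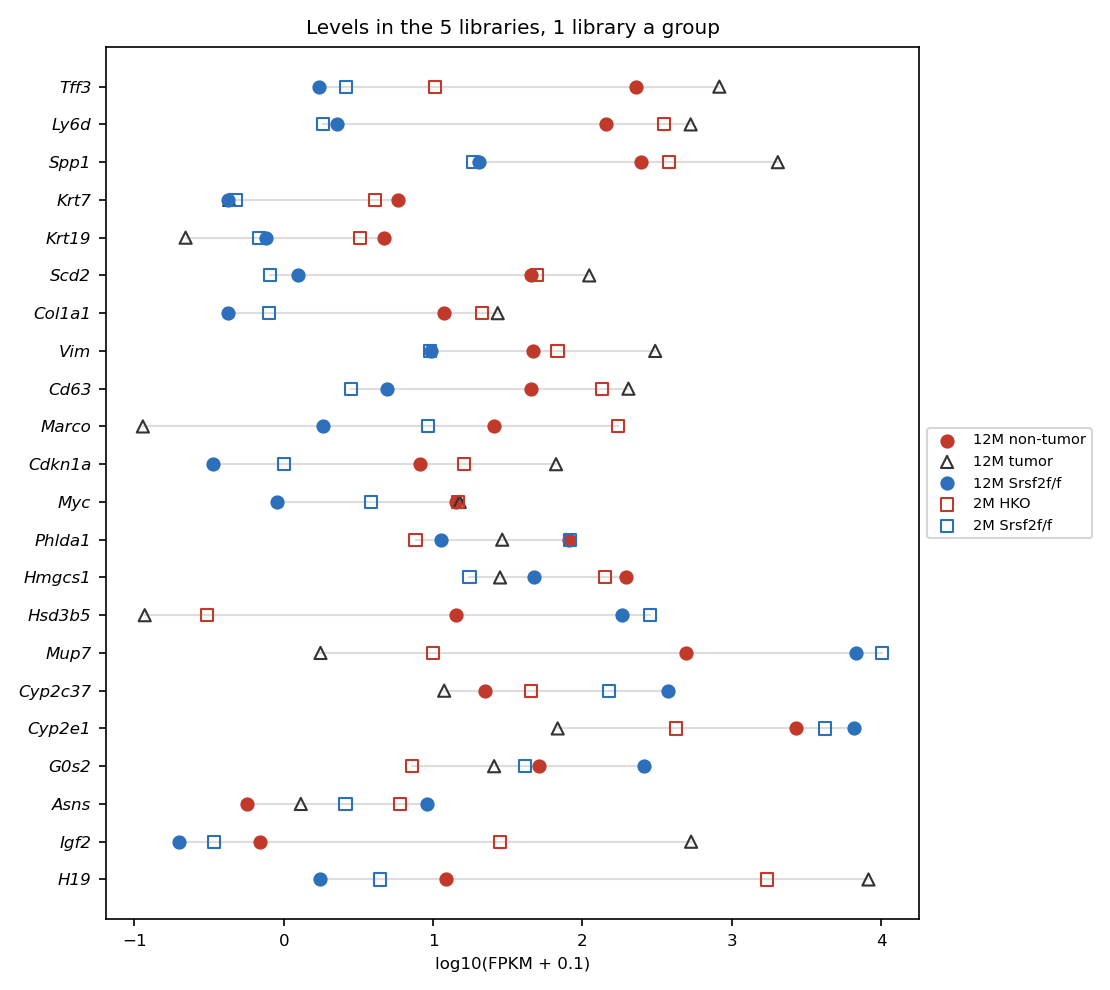
Levels of 22 named genes in the 5 libraries as log10(FPKM + 0.1), 1 library a group, with filled circles for the 12M non-tumor section and the 12M Srsf2f/f liver and open symbols for the 12M tumor and the 2M livers. Tff3 lies at 230 FPKM in the non-tumor section against 1.62 FPKM in the 12M Srsf2f/f liver, and Mup7 at 493 FPKM against 6796 FPKM.

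Genes of cholesterol synthesis shared a direction. Cells make cholesterol from acetyl-CoA through mevalonate and squalene, and the transcription factor SREBP2, encoded by Srebf2, turns on these genes when sterols are low. Of 32 measured genes of synthesis, uptake and control 12 were higher and 0 lower, beside 10.6% and 2.39% of all members, and 32 of 32 had a log2 ratio above 0, beside 70.7% of all members. The median was 0.80, or 0.62 after rescaling, and all 32 had over 1 FPKM in both libraries. Hmgcs1, the synthase that makes HMG-CoA, had 197 FPKM against 47.0 FPKM, a ratio of 4.19 (4.07 to 4.31). Further down the pathway, Idi1 had 18.4 FPKM against 5.74 FPKM, Mvd 40.3 FPKM against 14.045 FPKM, and the squalene epoxidase gene Sqle 94.9 FPKM against 28.3 FPKM. Lss, which closes the sterol rings, had 31.7 FPKM against 12.0 FPKM. Srebf2 had 22.1 FPKM against 10.6 FPKM.

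The promoters of higher genes of synthesis are shown because SREBP2 is known to bind a sterol element together with the factor NF-Y, which binds CCAAT. Each is the 250 bases before the RefSeq start in GRCm38.p6, read along the gene. They lie at chr13:119690101-119690350 on the plus strand for Hmgcs1, chr13:8885356-8885605 on the plus strand for Idi1, chr8:122443423-122443672 on the minus strand for Mvd and chr10:76531355-76531604 on the plus strand for Lss.
Hmgcs1: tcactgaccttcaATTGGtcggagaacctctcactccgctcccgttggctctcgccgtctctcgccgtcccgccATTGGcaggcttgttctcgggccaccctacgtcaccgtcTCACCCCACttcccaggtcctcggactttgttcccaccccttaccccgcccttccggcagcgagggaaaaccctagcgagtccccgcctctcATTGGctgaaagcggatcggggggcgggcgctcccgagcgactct
Idi1: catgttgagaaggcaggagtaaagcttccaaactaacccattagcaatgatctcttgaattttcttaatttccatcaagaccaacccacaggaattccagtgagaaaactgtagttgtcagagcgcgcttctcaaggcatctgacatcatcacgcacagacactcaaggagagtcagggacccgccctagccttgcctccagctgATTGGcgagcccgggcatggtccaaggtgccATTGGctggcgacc
Mvd: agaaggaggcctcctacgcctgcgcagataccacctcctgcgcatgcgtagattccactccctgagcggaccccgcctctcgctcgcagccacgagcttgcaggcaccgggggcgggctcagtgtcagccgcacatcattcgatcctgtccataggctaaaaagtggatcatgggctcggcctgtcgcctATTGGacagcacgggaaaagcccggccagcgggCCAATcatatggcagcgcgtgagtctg
Lss: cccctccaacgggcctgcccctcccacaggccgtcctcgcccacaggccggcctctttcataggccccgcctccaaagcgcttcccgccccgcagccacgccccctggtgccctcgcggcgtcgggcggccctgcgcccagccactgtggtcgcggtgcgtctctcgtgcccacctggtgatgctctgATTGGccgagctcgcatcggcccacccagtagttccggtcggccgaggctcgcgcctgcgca
Capitals mark matches to TCACNCCAC, a common form of the sterol element, or to CCAAT, written ATTGG where it lies on the other strand. Hmgcs1 holds TCACCCCAC 137 to 129 bases before its start and 3 matches to CCAAT. The others hold CCAAT matches, 2 each in Idi1 and Mvd and 1 in Lss. Both strands were searched, and the motifs do not overlap in these windows. Of 32851 windows of all RefSeq genes 33.8% hold CCAAT, beside 34.8% for members, 32.7% for called higher genes, and 19 of 28 windows (67.9%) for the measured genes of the cholesterol list. TCACNCCAC was in 1.05% of all windows and in 1 of 28 windows of the list. A match is a description of these letters and does not show that a factor binds there.

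**Figure D4:**
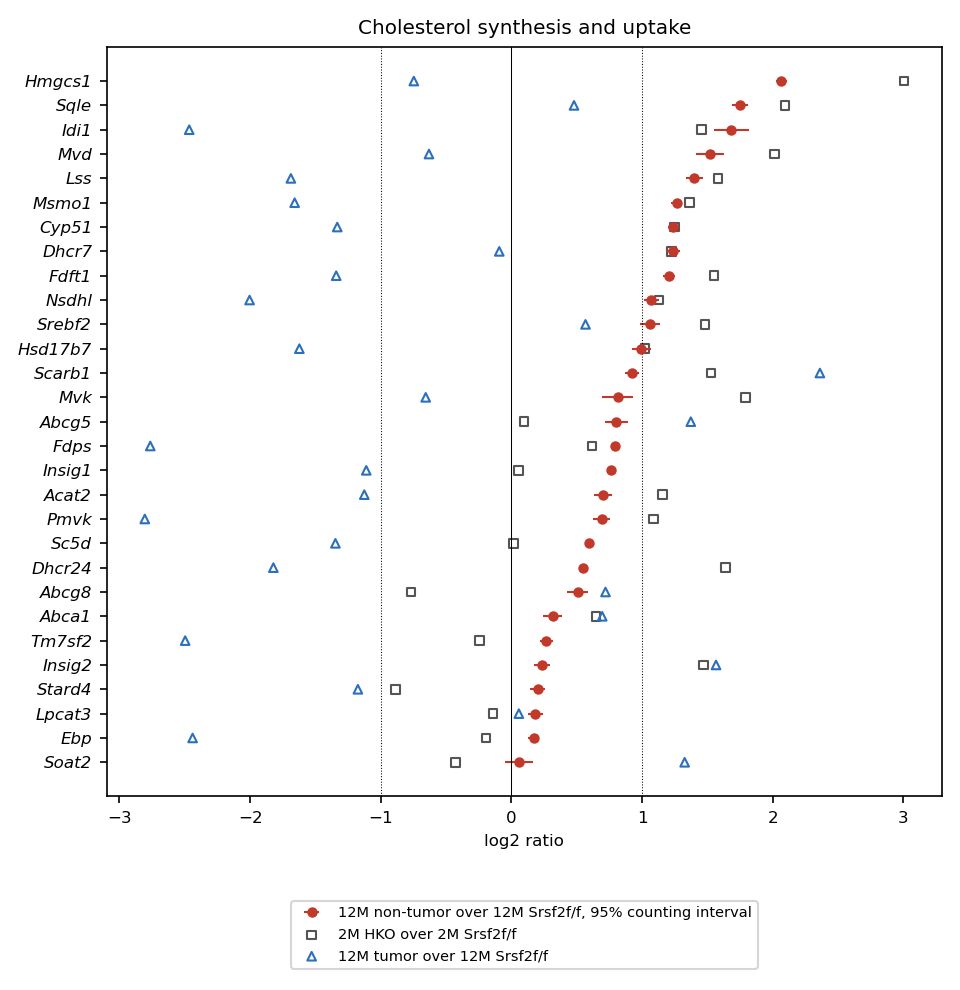
Log2 ratios of 29 genes of cholesterol synthesis, uptake and control, with red circles for the 12M non-tumor section over the 12M Srsf2f/f liver without a pseudocount and with 95% counting intervals, open squares for the 2M HKO over the 2M Srsf2f/f liver, and open triangles for the 12M tumor over the 12M Srsf2f/f liver, which shares the control library. All red circles lie above 0, with Hmgcs1 the highest of those drawn, and most triangles lie below 0.

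Genes of hepatocyte plasma proteins other than the urinary proteins were mostly within 2-fold. Of 44 measured genes of coagulation, complement and other plasma proteins 0 were past 2-fold in either direction, at a median of 0.05, which becomes -0.14 after rescaling. Of 15 measured serpina1 and serpina3 genes, which encode protease inhibitors, 0 were past 2-fold, at a median of -0.20, and their summed level was 19640.0 FPKM in the non-tumor section and 24920.0 FPKM in the 12M Srsf2f/f liver. Trf, the iron carrier transferrin, had 8849 FPKM in the non-tumor section against 5842 FPKM in the 12M Srsf2f/f liver. Acute phase genes, which hepatocytes turn on under inflammatory cytokines, were higher in 5 of 28 cases, at a median of 0.40. Their median was 0.04 with the 2M Srsf2f/f liver as control in place of the 12M one. The metallothionein genes Mt1 and Mt2, which bind zinc, had 54.9 FPKM and 43.8 FPKM against 9.10 FPKM and 4.66 FPKM, and Orm2, a plasma glycoprotein, 160 FPKM against 47.5 FPKM. Saa1 and Hamp were under 2-fold, at 168 FPKM and 380 FPKM against 112 FPKM and 322 FPKM. Among apolipoproteins 2 of 19 were higher, a share close to the 10.6% of all members, namely Apoa4 at 1107 FPKM against 350 FPKM and Apol9a at 48.7 FPKM against 17.4 FPKM.

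In bile acid metabolism, Cyp7a1, the rate-limiting enzyme of synthesis, was at 17.1 FPKM against 11.1 FPKM and under 2-fold, while Cyp8b1 and Cyp7b1, which shape the bile acid pool, were lower at 42.8 FPKM and 44.1 FPKM against 133 FPKM and 123 FPKM. The 2M Srsf2f/f liver had 12.8 FPKM of Cyp8b1, so against that control the gene would be higher, at a log2 ratio of 1.73. The list as a whole had 3 of 33 higher and 3 lower, beside 10.6% and 2.39% of all members. Its median was 0.02, which becomes -0.17 after rescaling. Targets of the antioxidant factor Nrf2 were higher in 8 of 27 cases and lower in 0, at a median of 0.64. The glutathione transferase genes Gsta1 and Gsta2, near-identical copies, had 15.95 FPKM and 131 FPKM against 1.19 FPKM and 48.5 FPKM. Nqo1 and Gclc, often used as readouts of Nrf2, had 6.92 FPKM and 93.8 FPKM against 5.50 FPKM and 71.6 FPKM. In the unfolded protein and integrated stress response 1 of 30 was higher and 1 lower, and the lower one was Asns, although its regulator Atf4 was level at 60.8 FPKM against 53.3 FPKM.

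Splicing factors and housekeeping complexes stayed near the bulk of genes. Of 11 measured SR protein genes 0 passed 2-fold, at a median of 0.37, or 0.18 after rescaling. Srsf5 had the largest ratio of them, with 60.1 FPKM in the non-tumor section against 35.7 FPKM in the 12M Srsf2f/f liver. The 24 measured genes of SR kinases and the spliceosome and the 24 hnRNP genes had medians of 0.14 and 0.21, which become -0.05 and 0.03 after rescaling, with 0 past 2-fold. Srsf2 itself lay at 0.16, or -0.03 after rescaling. Of 39 cytosolic ribosomal protein genes and 31 proteasome genes 0 were past 2-fold, at medians of 0.03, which becomes -0.16 after rescaling, and -0.03. The 39 nuclear genes of oxidative phosphorylation had a median of -0.16, and the 1 gene past 2-fold, Uqcrc1, is a scaffold record that was at 10.7 FPKM in the non-tumor section, against 2.01 FPKM in the 12M and 11.1 FPKM in the 2M Srsf2f/f liver.

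At 2M, HKO and Srsf2f/f livers were sequenced as libraries of their own, so that comparison shares no library with the 12M one. In both comparisons 6273 genes passed 5 FPKM on either side, and 358 of them were higher at 12M in the non-tumor section (5.71%) and 852 at 2M in the HKO liver (13.6%). Of these, 314 were higher at both ages, 87.7% of the 12M list and 36.9% of the 2M list. Lower genes numbered 95 at 12M (1.51%) and 454 at 2M (7.24%), and 71 were lower at both, 74.7% and 15.6% of the lists. Ratios were mostly smaller at 12M. Among the 314 genes the median log2 ratio was 1.56 at 12M and 2.38 at 2M, and 47 of them had a larger ratio at 12M than at 2M. Among the 71 genes the medians were -1.63 and -3.64. Tff3 was 1 of the 47, with 230 FPKM against 1.62 FPKM at 12M, and 10.2 FPKM against 2.50 FPKM at 2M. Hsd3b5 shows the reverse, with 14.1 FPKM against 183 FPKM at 12M, and 0.207 FPKM against 284 FPKM at 2M. For lists, the median of monocyte and injury macrophage genes was 1.73 at 12M and 3.46 at 2M, that of collagens 2.31 and 2.81, that of mitosis genes 1.72 and 4.39, and that of cholesterol genes 0.80 and 1.14. Portal fibroblast and mesothelium genes had 2.75 and 2.26. Medians of sinusoidal endothelium differed in sign, at -0.78 and 0.47, as did those of Kupffer cell genes, at -0.17 and 1.08, and whether these differences exceed those between animals was not tested.

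Another 34 higher genes and 22 lower genes at 12M lay within 2-fold at 2M. Noct, a deadenylase with a daily rhythm in the liver, was 1 of them, with 41.8 FPKM against 6.57 FPKM at 12M, and 15.6 FPKM against 14.3 FPKM at 2M. Prlr, the prolactin receptor, had 2.47 FPKM against 8.17 FPKM at 12M, and 5.40 FPKM against 4.78 FPKM at 2M. For 12 genes the calls were opposite at the 2 ages, 10 of them higher at 12M and lower at 2M. The time of day of sampling is not given in the sources used here.

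**Figure D5:**
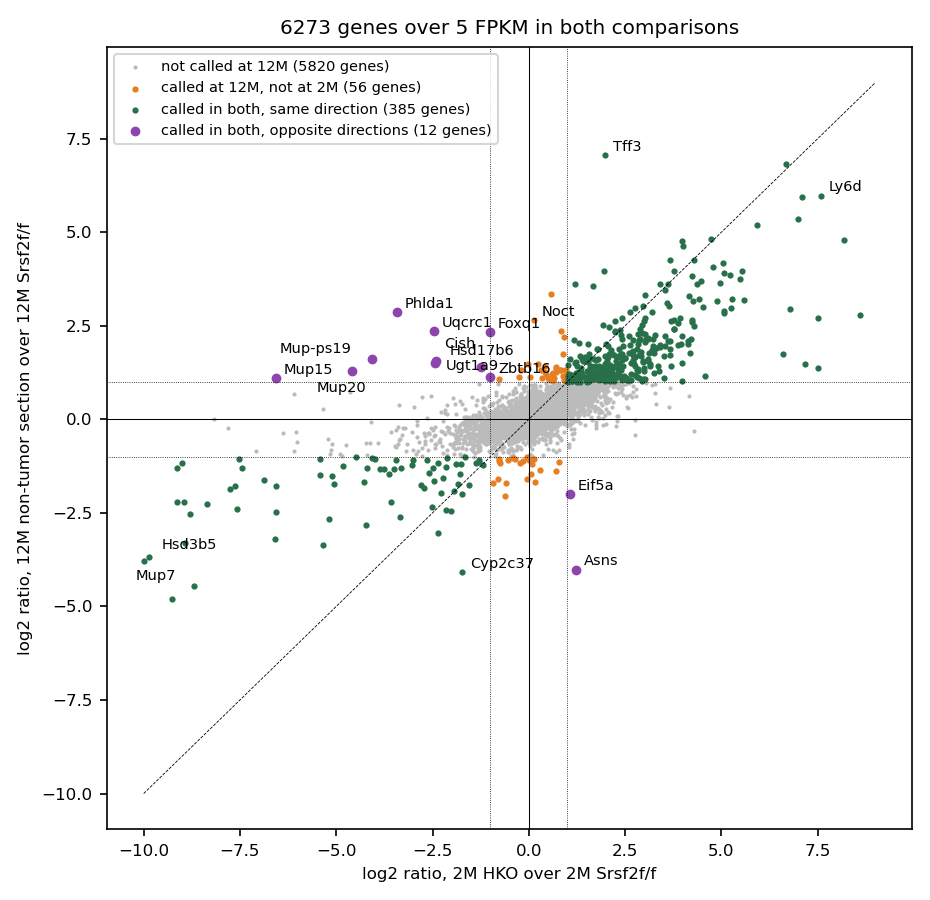
Each point is 1 of 6273 genes, with the log2 ratio of the 12M non-tumor section over the 12M Srsf2f/f liver on the vertical axis and of the 2M HKO over the 2M Srsf2f/f liver on the horizontal axis. Green points are called in the same direction at both ages, purple points in opposite directions (12 genes), dotted lines mark 2-fold and the dashed line equal ratios, and orange points are called at 12M alone (56 genes). Most green points at the left lie above the dashed line, and Mup7 and Hsd3b5 lie far from it.

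The 12M tumor shares its animal with the non-tumor section, and its comparison with the 12M Srsf2f/f liver shares that library, so values stand side by side with no overlap drawn. Collagen, myofibroblast and monocyte medians against the 12M Srsf2f/f liver were 2.31, 2.13 and 1.73 in the non-tumor section, and 3.91, 3.43 and 2.44 in the tumor. Cholesterol genes had medians of 0.80 and -1.23, and the urinary proteins -2.20 and -8.32. Krt7 and Krt19 had 5.77 FPKM and 4.61 FPKM in the non-tumor section, 0.332 FPKM and 0.1202 FPKM in the tumor, and 0.323 FPKM and 0.659 FPKM in the 12M Srsf2f/f liver. Clec4f had 32.5 FPKM in the non-tumor section, 0.0115 FPKM in the tumor and 41.3 FPKM in the 12M Srsf2f/f liver. H19 had 12.1 FPKM in the non-tumor section, 8234 FPKM in the tumor and 1.65 FPKM in the 12M Srsf2f/f liver. These duct keratins do not stand for the biliary list. Of its 17 measured markers 8 exceeded the non-tumor section by over 2-fold in the tumor and 4 lay under it by as much, at a median of 0.49. Summed levels of the list were 2565 FPKM in the tumor and 425 FPKM in the non-tumor section. Such sums weigh abundant markers such as Spp1 most.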

How the data were processed

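Paired-end libraries of total RNA from mouse liver were aligned with Bowtie 0.12.2 to GRCm38, as named in the submitters' processing notes, and the counting tool and annotation are not given in the sources used here. The deposited file of the authors gives FPKM values per gene record, with 1 column per library and a gene length. The study's EBSeq test was not repeated, since a comparison of 1 library a side has no replicate. FPKM times length fell on whole multiples of a step for 98.7% to 98.8% of values within 0.01, which gave fragments per gene and library totals. Between 58.8% and 61.0% of fragment numbers from 2 to 21 were even, so fragments may not be independent and the counting intervals may be too narrow. Log2 ratios used FPKM + 0.1, members had over 1 FPKM and called genes over 5 FPKM in either library, and the fold was 2. Intervals of the fragment ratio are 95% exact binomial (Clopper-Pearson) intervals. A gene with 0 fragments was set at 3 fragments for a bound.

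Members, lists and tests were chosen with earlier results of these data known. Named genes were Srsf2, the 15 highest and 15 lowest called ratios without predicted genes, genes named by the study, in each of 80 lists the first 3 genes and up to 6 with the largest absolute ratio, the 10 most abundant genes, and up to 5 opposite calls in each direction. Elovl3, Mup15, Mup17, Mup20 and Srebf2 in the report, and some genes with opposite calls, were named after their values were seen. Alternatives changed the pseudocount, the minimum, the scaling, TPM, predicted genes, the control library and counting error. Leaving out scaffold records and requiring a mean over 1 FPKM across the libraries were chosen after seeing the data. Promoter windows came from RefSeq (GRCm38.p6), with 8116 of 11037 members matched by symbol. Calculations ran in Python 3.11.15 with numpy 2.4.6, pandas 2.3.3 and scipy 1.17.1, and were tested on simulated data. There the 12M Srsf2f/f library was drawn as both sides. Of 200 genes at each true fold, 200 were called at 4 and 198 at 0.25. At the threshold itself, 11 were called at a true fold of 2 and 174 at 0.5. The folds were drawn for 1 side only, which was then scaled by its own changed total, so its ratios could shift together. The uneven counts belong to this simulated setting and do not show which way calls near 2-fold lean in the real libraries. Of 4947 unchanged genes 1 was called. Some genes of these lists are counted but not reported here singly. Figures were drawn with matplotlib 3.10.9.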

Additional observations from a re-analysis of the deposited data

Results flagged for a closer look

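For 12 genes the call at 12M, non-tumor section against 12M Srsf2f/f liver, was opposite to the call at 2M, HKO against Srsf2f/f liver. With 1 library a side the difference between the ages was not tested.

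Most of them were higher at 12M and lower at 2M. Phlda1, a pleckstrin homology domain gene induced by growth factors, stood at 2.87 on the log2 scale at 12M and at -3.43 at 2M, from 81.8 FPKM in the non-tumor section against 11.1 FPKM in the 12M Srsf2f/f liver, and 7.53 FPKM in the 2M HKO liver against 82.4 FPKM in the 2M Srsf2f/f liver. The 12M non-tumor section and the 2M Srsf2f/f liver thus lay close together for this gene. Foxq1, a forkhead factor, stood at 2.34 and -1.02, with 21.2 FPKM against 4.12 FPKM at 12M. Cish, a feedback gene of growth hormone signalling, stood at 1.57 and -2.42, with 36.1 FPKM in the 2M Srsf2f/f liver and 2.47 FPKM in the 12M Srsf2f/f liver. The control livers differed from each other in both Phlda1 and Cish.

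Hsd17b6, a steroid dehydrogenase, stood at 1.39 at 12M and -1.24 at 2M, and Zbtb16, a zinc finger factor, at 1.13 and -1.02. Among multigene families, Mup20 stood at 1.28 and -4.58, Mup15 at 1.09 and -6.57, Mup-ps19 at 1.60 and -4.08, and Ugt1a9 at 1.49 and -2.43, where fragments may be shared between near-identical copies. The scaffold record of Uqcrc1, a subunit of respiratory complex III, stood at 2.36 and -2.47. Asns and Eif5a went the other way. Asns stood at -4.01 at 12M and 1.22 at 2M, with 5.94 FPKM in the 2M HKO liver against 2.49 FPKM in the 2M Srsf2f/f liver. The scaffold record of Eif5a, a translation factor, stood at -1.997 and 1.06.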

How the results depend on the processing

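Called genes numbered 398 higher and 112 lower. The higher count was 1172 with a minimum of 1 FPKM, 228 with 10 FPKM, 770 with TPM and 609 with the 2M Srsf2f/f liver as control. The lower count was 264 with a minimum of 1 FPKM, 175 after median scaling, 176 with the 2M control and 57 against both controls. Among members from 1 FPKM, the higher count of 1172 became 631 with a pseudocount of 1 and 1837 with TPM. The lower count of 264 became 160 with that pseudocount, 169 without predicted genes, 121 against both controls and 164 where the interval lay past 2-fold. The share of higher genes also called at 2M was 79.55% with the 2M control, which that overlap then shares, and 94.53% against both controls, where the lower share was 82.46%. Lists with a median under -1 numbered 2 among members over 5 FPKM. Srsf2 lay at -0.026 after median scaling and at 0.27 against the 2M control. Against the 2M control the log2 ratio also turned sign for called genes with opposite calls or with unlike controls, to 0.328 for Acot1, 5.838 for Cidea, -2.249 for Cish, 1.405 for Cyp4a14, 1.734 for Cyp8b1, 0.292 for Eif5a, 0.303 for G0s2, -0.305 for Hsd17b6, -0.009 for Phlda1, -0.12 for Ugt1a9, -0.052 for Uqcrc1 and -0.226 for Zbtb16. Some of these moves follow from the setting itself, such as fewer genes tested, and for the others the cause was not tested. No paired analysis was possible because each group is 1 library, and for the same reason no replicate could be left out.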

Other observations

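Among gene groups not described above, growth factor genes included Hbegf, a ligand of the EGF receptor, with a log2 ratio of 2.68 for the 12M non-tumor section over the 12M Srsf2f/f liver. The list of EGF, HGF and FGF ligands and receptors had 6 of 16 measured genes higher and 1 lower, at a median of 0.53. Erk feedback and output genes were higher in 6 of 13 cases, 4 of the 13 being members only through the non-tumor section, at a median of 0.90. The Erk median was 0.42 with the 2M Srsf2f/f liver as control and 0.23 against both controls, so its size depends on the control. NF-kB and Stat3 target genes were higher in 9 of 21 cases, at a median of 0.81, and 4 of the 21 passed 1 FPKM only in the non-tumor section. Wnt and Rspo genes were higher in 3 of 16 cases and lower in 1, Wnt2, an endothelial ligand, at 0.492 FPKM in the non-tumor section and 1.21 FPKM in the 12M Srsf2f/f liver. Of these 16, 3 passed 1 FPKM only in the non-tumor section and 1 only in the 12M Srsf2f/f liver. Lysosomal and phagocytic genes were higher in 6 of 27 cases, at a median of 0.63. Of 9 measured imprinted genes 2 were higher, H19 and Sgce, and of 16 tumor suppressors of the liver 3 were higher and 1 lower. Clock genes had a median of -0.22, with 2 of 19 higher, Noct and Arntl, a share close to the 10.6% of all members.

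Several groups had few members past 2-fold. MHC class I and immunoproteasome genes had 0 of 8 and DNA methylation and demethylation genes 0 of 9, at medians of 0.42 and 0.31. Glycolysis and gluconeogenesis genes had 2 of 28 higher and 1 lower, at a median of 0.06, which becomes -0.13 after rescaling. Phase II conjugation genes had 7 of 45 higher and 4 lower. Iron handling genes had 1 of 21 higher and 1 lower, Hamp2, a hepcidin, at 6.80 FPKM against 18.0 FPKM. Of 8 measured globin and red cell genes 0 were higher and 1 lower. Genes of the pancreas were measured in 0 of 12 cases and those of muscle in 1 of 8. Of 6 measured adipose genes 1 was higher and 2 lower, with Car3, a carbonic anhydrase of fat and liver, at 1032 FPKM against 3542 FPKM.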
